A study of Homo sapiens with 18 samples.

Results

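The 45 genes described here encode factors of ribosome biogenesis and of the nucleolus. They were chosen by name, with earlier results of these data known. All 45 were listed in both cell lines, out of 19068 genes listed for either line (17110 for HL-60, 17475 for MOLM-13, 15517 in both). They were ordered by role: 7 genes of RNA polymerase I transcription, 4 of the box C/D and 4 of the H/ACA small nucleolar ribonucleoproteins (snoRNPs), 12 of the small subunit processome and later pre-40S particles, 13 of 60S assembly and 5 multifunctional nucleolar proteins.

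RNA was measured in 2 human lines of acute myeloid leukaemia. HL-60 is a promyelocytic line, and MOLM-13 is a monocytic line with a KMT2A rearrangement. Each line was kept for 48 h with the solvent DMSO, with DAC (the usual abbreviation of decitabine, a cytidine analogue that traps DNA methyltransferases on DNA) or with NTX-301, a compound known here by its code name, in 3 replicates per group and 18 samples in all. The labels name 30 nM (HL-60) and 15 nM (MOLM-13), in wording that may cover NTX-301 as well or only DAC; dose and line therefore cannot be told apart. The labels speak of triplicate wells and not of separate cultures, so p-values measure only the spread between these samples.

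Ribosomes are built in the nucleolus. RNA polymerase I copies the ribosomal DNA repeats into a long precursor, snoRNPs guide its methylation and pseudouridylation, and large assemblies fold and cut it into the RNAs of the 40S and 60S subunits. Growing and dividing cells spend much of their transcription and energy on this route, and nucleolar size has long been read as a mark of growth in leukaemic blasts. Many of its genes are known to be controlled together in growing cells.

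The values are the log2 normalized expression values that the authors deposited, 1 per gene and sample. The read depth is unknown. The lines appeared to have been normalized apart, so levels are compared within a line only. Markers alone are set side by side across lines, as a rough guide. Of those chosen for HL-60, MPO, the granulocyte peroxidase, averaged 18.71 in HL-60 DMSO samples and 13.04 in MOLM-13. CEBPE (12.85 and 8.19) and CTSG (13.73 and 13.45) had the same order. ELANE (14.26 and 14.94), AZU1 (12.80 and 14.94) and PRTN3 (16.07 and 16.89) went the other way. HOXA9 and MEIS1, chosen for MOLM-13, averaged 12.43 and 12.56 there and were not listed for HL-60. Of 11 markers of other cell types, HL-60 listed CD79A only, and MOLM-13 listed CD3D, HBB, HBA1 and COL1A1. Differences below are on the log2 scale and were tested with limma over all genes kept in a line (17046 in HL-60, 17475 in MOLM-13), with Benjamini-Hochberg adjustment over all of them; a gene was called at an adjusted p under 0.05, and "rose" or "fell" is written only of called genes. In bulk samples, fewer cells of a kind and less RNA of a gene per cell cannot be told apart.

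RefSeq windows on GRCh38.p14, from 250 bases before to 50 bases after a transcript start, matched 37 of the 45 genes, all but BOP1, DDX18, NOLC1, NOP58, POLR1E, RRP12, RRP1B and TCOF1. The palindrome CACGTG, the canonical E-box recognised by basic helix-loop-helix proteins, lay in a window of 19 of the 37 genes (51.4%). The share was 22.8% among 114 other ribosome biogenesis genes with a window, 6.35% among 63 ribosomal protein genes, 12.9% among 9922 genes tested in both lines and 8.77% among all 27305 genes with a window. CACGTG was picked for its share out of 16 motifs searched on both strands. Of the others, CACGCG was in 32.4% of the 37 genes, against 22.3% of genes tested in both lines, the ETS-type letters CCGGAAG were in 37.8% against 23.5%, TTCCGG (whose other strand, with GGAA in it, overlaps CCGGAAG) in 51.4% against 35.9%, and ATGGCG in 29.7% against 22.5%. Shares were close to the background for the GC box GGGCGG (75.7% against 74.3%), the CCAAT box (43.2% against 43.5%) and CGCGCG (35.1% against 32.3%), and each of the 37 genes had GGAA in a window (background 96.7%). The TATA letters TATAAA, the letters TTTCCGGG (which contain TTCCGG), the cyclic AMP element TGACGTCA, the E2F-type TTTGGCGC, the YY1-type CCATCTT and the motifs known by the names NRF1 and ZBTB33 were each in 0.0% to 10.8% of the 37, against 1.14% to 9.96%. Of 21 CACGTG sites, 18 lay within 50 bases of the start. The 7 windows shown here belong to genes whose values are given below. Each runs from 45 bases before to 25 bases after the start, 5′ to 3′ on the strand of the gene, with CACGTG in capitals.
DDX21, chr10:68956602-68956671, plus strand: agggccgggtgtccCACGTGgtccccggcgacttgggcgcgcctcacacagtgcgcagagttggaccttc
FBL, chr19:39846355-39846424, minus strand: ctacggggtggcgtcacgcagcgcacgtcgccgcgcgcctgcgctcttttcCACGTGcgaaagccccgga
GNL3, chr3:52685987-52686056, plus strand: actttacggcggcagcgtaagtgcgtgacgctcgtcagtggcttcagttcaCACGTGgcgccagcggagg
NOP14, chr4:2963382-2963451, minus strand: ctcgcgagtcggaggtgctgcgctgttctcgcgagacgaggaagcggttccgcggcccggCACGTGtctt
RRP9, chr3:51941880-51941949, minus strand: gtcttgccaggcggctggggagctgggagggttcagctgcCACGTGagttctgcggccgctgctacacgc
UTP4, chr16:69132604-69132673, plus strand: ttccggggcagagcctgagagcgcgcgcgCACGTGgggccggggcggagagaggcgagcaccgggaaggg
WDR43, chr2:28894622-28894691, plus strand: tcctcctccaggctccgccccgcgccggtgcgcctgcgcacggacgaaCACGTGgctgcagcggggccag
The site stood 31 bases before the start in DDX21, 16 before it in UTP4 and 5 before it in RRP9. In WDR43, FBL, GNL3 and NOP14 its first base was base 4, 7, 7 and 16 of the transcript. These are matches of letters in a reference sequence and not measured binding.

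In both lines and with both drugs, more of the 45 genes fell than rose. In HL-60, 23 fell and 2 rose with DAC (of all 17046 genes, 12.6% fell and 11.6% rose), and 34 fell and none rose with NTX-301 (all genes: 19.2% fell, 18.3% rose). In MOLM-13, 39 fell and 1 rose with DAC (all 17475 genes: 21.2% fell, 15.4% rose), and 43 fell and none rose with NTX-301 (all genes: 24.8% fell, 20.3% rose). At an unadjusted limma p under 0.05, none rose with NTX-301 in either line, while 39 (HL-60) and 44 (MOLM-13) were lower.

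The falls were small. The median difference of the 45 genes was -0.067 with DAC and -0.11 with NTX-301 in HL-60, or -4.56% and -7.08% on the linear scale. In MOLM-13 it was -0.21 with DAC and -0.25 with NTX-301, or -13.4% and -15.8%. The median of all genes tested lay between 0.0006 and 0.0034 in these comparisons. The replicates were tight, with a median SD per gene and group of 0.0246 (HL-60) and 0.0301 (MOLM-13), and the widest SD belonged to PPAN in both lines.

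These genes are well expressed, and well expressed genes were called more often. Among the genes at or above the lowest mean of the 45 (8223 in HL-60, 9426 in MOLM-13), 21.5% fell with DAC and 33.1% with NTX-301 in HL-60; for MOLM-13 the shares were 37.3% and 43.2%. The 45 genes had 51.1%, 75.6%, 86.7% and 95.6% in the same order. The cut was the mean of GAR1, 9.77 in HL-60 and 9.31 in MOLM-13, whereas the median of the 45 means was 12.98 and 13.01. The genes above the cut are thus not matched to the 45 in level. Groups that did not overlap, with every drug sample below every DMSO sample, were found for 28, 38, 40 and 43 of the 45; over all genes the shares were 19.2%, 24.0%, 24.9% and 28.6%.

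**Figure D1:**
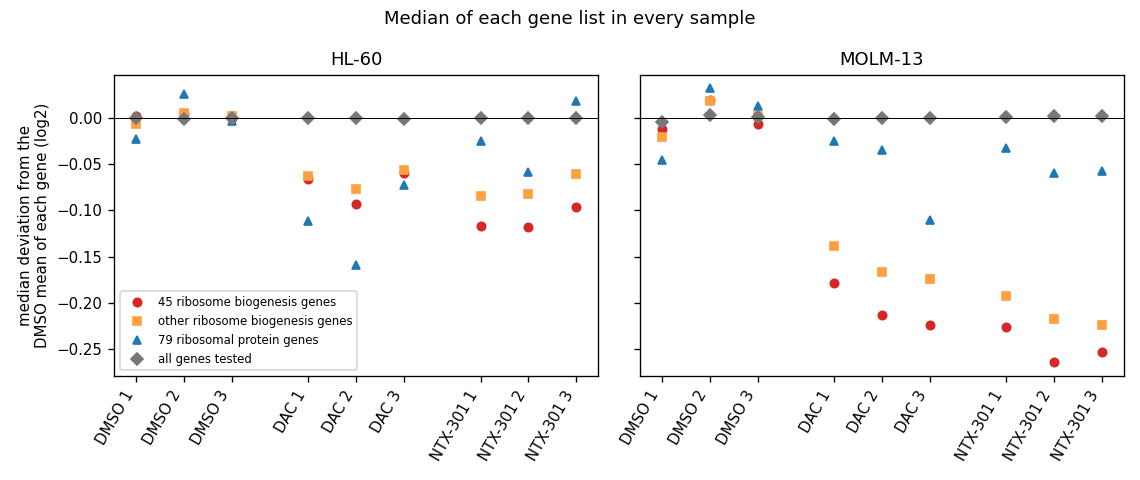
Median deviation of each gene list from its DMSO mean, on the log2 scale (vertical axis), for each of the 18 samples (horizontal axis, by line and treatment); each mark is the median over the genes of 1 list in 1 sample. For the 45 genes, all 3 DAC samples (-0.066, -0.093 and -0.059) and all 3 NTX-301 samples of HL-60 (-0.12, -0.12 and -0.096) lie below the DMSO samples, and the drug samples of MOLM-13 lie lower still, from -0.18 to -0.26.

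Every drug sample shared the direction. In the HL-60 drug samples, 40 to 42 of the 45 genes lay below their DMSO mean, and in the MOLM-13 drug samples 43 to 45 did, against 16 to 25 in the DMSO samples of both lines. The medians depended in size on the scaling. Quantile normalization gave -0.055 (DAC) and -0.081 (NTX-301) in HL-60, against -0.11 and -0.15 in MOLM-13, and centring on the sample median gave -0.067, -0.13, -0.24 and -0.28. Under quantile normalization 23, 25, 29 and 37 of the 45 genes fell. Over all genes, centring moved the share of falls among the calls from 51.2% to 70.0% (HL-60 with NTX-301), from 57.9% to 74.5% (MOLM-13 with DAC) and from 55.0% to 67.8% (MOLM-13 with NTX-301); the balance between falls and rises over the whole set rests on the scaling. Of the 23, 34, 39 and 43 falls, 17, 29, 36 and 42 kept their call whichever single replicate was left out.

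**Figure D2:**
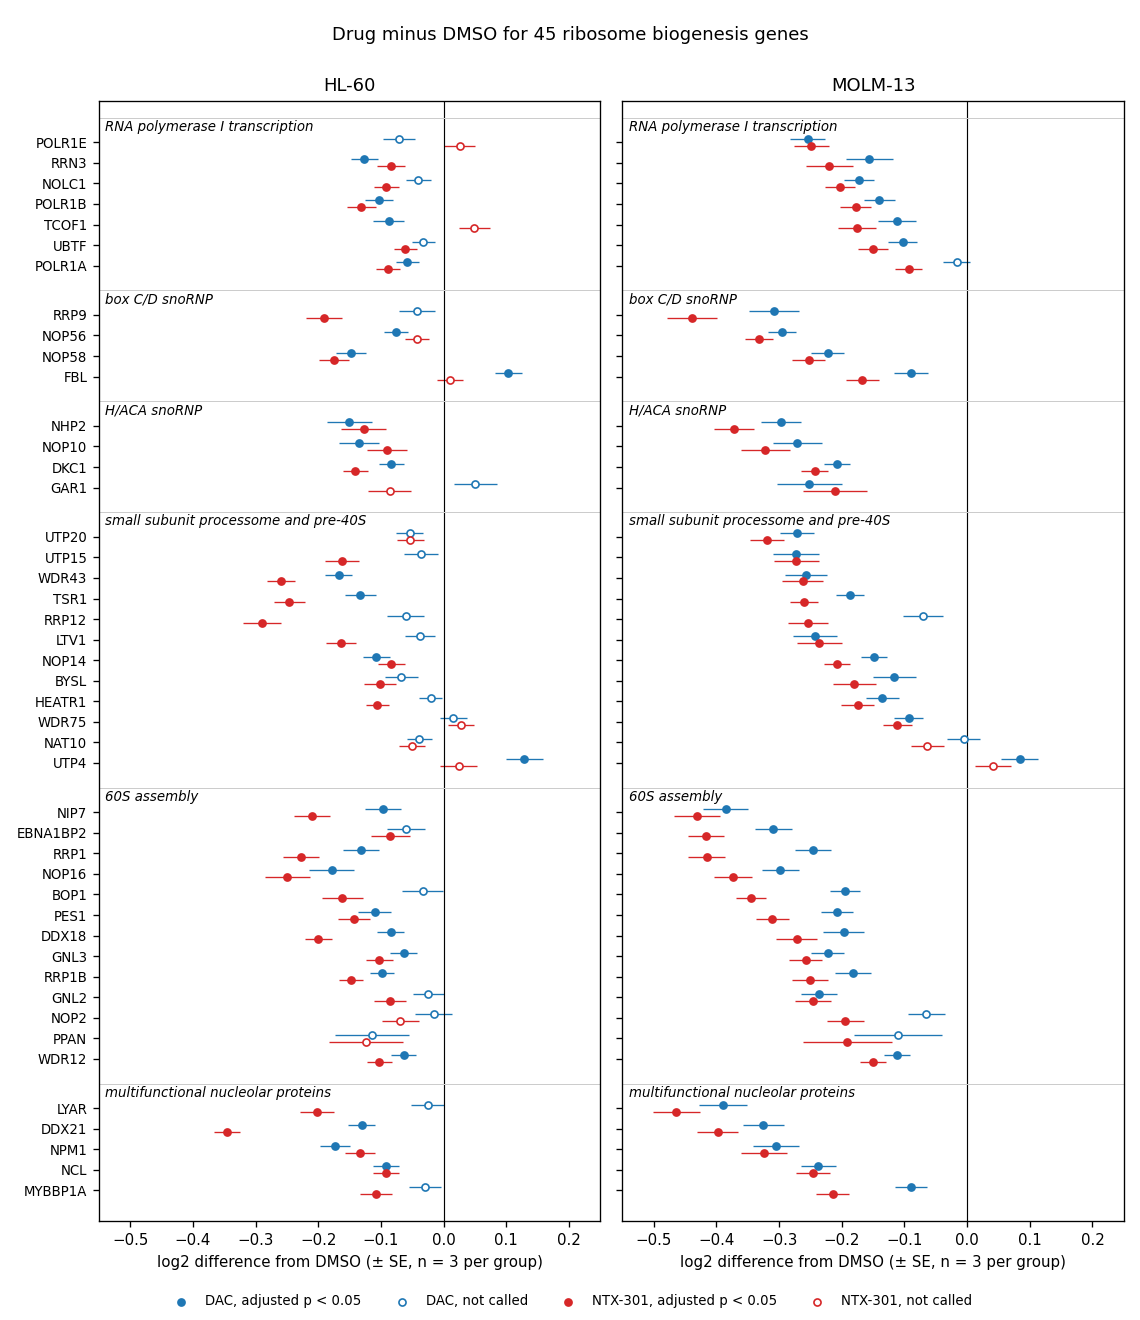
Log2 difference from DMSO ± SE (horizontal axis) for each of the 45 genes (vertical axis, grouped by role), by drug and line; filled marks are called and open marks are not. Most marks lie left of 0; for DAC, FBL, GAR1, UTP4 and WDR75 lie to the right in HL-60 and UTP4 in MOLM-13.

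Among the genes of RNA polymerase I transcription, 4 of 7 fell with DAC and 5 with NTX-301 in HL-60, and 6 and all 7 in MOLM-13. Their medians were -0.071 and -0.084 in HL-60, against -0.14 and -0.18 in MOLM-13. POLR1A and POLR1B (NCBI Gene 25885 and 84172) encode the 2 catalytic subunits of the enzyme. POLR1A was 14.04, 13.99 and 14.03 with DMSO, 13.96, 13.96 and 13.96 with DAC and 13.93, 13.94 and 13.93 with NTX-301 in HL-60. It was 13.51, 13.49 and 13.51 with DMSO, 13.47, 13.49 and 13.50 with DAC and 13.42, 13.42 and 13.39 with NTX-301 in MOLM-13. In HL-60 both drug groups lay wholly below DMSO, by 0.058 ± 0.018 (SE) with DAC and 0.089 with NTX-301 (limma adjusted p = 0.0333 and 0.00156). In MOLM-13 the DAC group overlapped DMSO (difference -0.017, limma adjusted p = 0.581), and POLR1A fell by 0.093 with NTX-301 (limma adjusted p = 0.00384). The DAC fall of POLR1A in HL-60 missed the threshold without DMSO replicate 1 or 3, any of the DAC replicates or NTX-301 replicate 1 (adjusted p 0.0508 to 0.087), with centring and with only the groups compared (0.0589 to 0.0675). Quantile normalization turned the sign of POLR1A in MOLM-13, to 0.065 with DAC and 0.0084 with NTX-301.

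POLR1B moved more evenly. Its HL-60 values were 13.39, 13.36 and 13.38 with DMSO, 13.30, 13.25 and 13.27 with DAC and 13.26, 13.20 and 13.27 with NTX-301. Its MOLM-13 values were 13.40, 13.46 and 13.45 with DMSO, 13.31, 13.31 and 13.27 with DAC and 13.25, 13.28 and 13.25 with NTX-301. Every drug sample lay below every DMSO sample of its line. POLR1B fell by 0.10 and 0.13 in HL-60 (DAC and NTX-301; limma adjusted p = 0.00461 and 0.000356) and by 0.14 and 0.18 in MOLM-13 (0.000808 and 0.000105). The fall with DAC in MOLM-13 missed the threshold under quantile normalization (-0.055, adjusted p = 0.0543).

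POLR1E (Gene 64425), a smaller subunit of the enzyme, differed between the lines. In HL-60 it was 12.36, 12.40 and 12.41 with DMSO, 12.34, 12.28 and 12.35 with DAC and 12.43, 12.40 and 12.42 with NTX-301. MOLM-13 samples gave 12.34, 12.42 and 12.34 with DMSO, 12.13, 12.11 and 12.08 with DAC and 12.12, 12.12 and 12.11 with NTX-301. The HL-60 NTX-301 samples overlapped DMSO (0.025, limma adjusted p = 0.471), and the DAC samples lay below it by an amount that was not called (-0.071, 0.0547; without DMSO replicate 1, -0.087 and 0.0331). In MOLM-13 POLR1E fell by 0.25 with DAC and 0.25 with NTX-301 (limma adjusted p = 3.88e-05 and 2.6e-05), and the difference between lines was called for both drugs (-0.18 and -0.27; 0.000823 and 7.73e-06).

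UBTF (Gene 7343) encodes the HMG-box protein that occupies active ribosomal DNA, and RRN3 (Gene 54700) the factor that brings the enzyme to its promoter. UBTF was 13.53, 13.53 and 13.53 with DMSO, 13.49, 13.50 and 13.50 with DAC and 13.46, 13.46 and 13.49 with NTX-301 in HL-60. It was 13.09, 13.08 and 13.07 with DMSO, 13.00, 12.97 and 12.96 with DAC and 12.95, 12.93 and 12.90 with NTX-301 in MOLM-13. All drug samples of UBTF lay below DMSO, but the DAC difference in HL-60 was not called (-0.032, limma adjusted p = 0.224), against falls of 0.061, 0.10 and 0.15 for NTX-301 in HL-60, DAC in MOLM-13 and NTX-301 in MOLM-13 (0.0158, 0.00481 and 0.000292). The NTX-301 fall in HL-60 missed the threshold without NTX-301 replicate 1 or 2 (adjusted p 0.062 and 0.0625), and under quantile normalization none of the 3 falls of UBTF was called (-0.026, -0.021 and -0.048). RRN3 was 12.59, 12.60 and 12.57 with DMSO, 12.46, 12.44 and 12.48 with DAC and 12.53, 12.49 and 12.49 with NTX-301 in HL-60. It was 13.03, 13.14 and 13.07 with DMSO, 13.00, 12.89 and 12.88 with DAC and 12.86, 12.89 and 12.83 with NTX-301 in MOLM-13. No drug sample of RRN3 overlapped DMSO, and it fell by 0.13 and 0.084 in HL-60 and by 0.16 and 0.22 in MOLM-13 (limma adjusted p = 0.00085, 0.00704, 0.00651 and 0.000542). RRN3 has listed pseudogene copies, so its reads may be shared, and its falls with NTX-301 in HL-60 and with DAC in MOLM-13 missed the threshold under quantile normalization (-0.050 and -0.075).

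TCOF1 (Gene 6949) encodes treacle, which links RNA polymerase I to early processing, and NOLC1 (Gene 9221) a chaperone of snoRNPs. TCOF1 was 13.42, 13.42 and 13.49 with DMSO, 13.35, 13.37 and 13.35 with DAC and 13.45, 13.50 and 13.52 with NTX-301 in HL-60. It was 12.98, 12.87 and 12.89 with DMSO, 12.82, 12.78 and 12.81 with DAC and 12.72, 12.75 and 12.74 with NTX-301 in MOLM-13. In HL-60 the DAC samples lay below DMSO and the NTX-301 samples overlapped it: TCOF1 fell by 0.088 with DAC (limma adjusted p = 0.0188) and differed by 0.049 with NTX-301 (0.141). The DAC fall missed the threshold without DMSO replicate 3 or DAC replicate 1 (0.0636 to 0.0778), and without DMSO replicate 3 the NTX-301 difference was called higher (0.071, adjusted p = 0.0395), as it was under quantile normalization (0.081). In MOLM-13 both groups lay below DMSO, by 0.11 and 0.18 (limma adjusted p = 0.0124 and 0.000571), and neither fall was called under quantile normalization (-0.036 and -0.082). NOLC1 was 14.27, 14.30 and 14.26 with DMSO, 14.22, 14.22 and 14.26 with DAC and 14.17, 14.20 and 14.19 with NTX-301 in HL-60. It was 14.06, 14.01 and 14.01 with DMSO, 13.86, 13.85 and 13.85 with DAC and 13.86, 13.81 and 13.81 with NTX-301 in MOLM-13. DAC samples of NOLC1 overlapped DMSO in HL-60 (-0.041, limma adjusted p = 0.155), and it fell by 0.091, 0.17 and 0.20 in the other comparisons with DMSO (0.00198, 0.000183 and 3.96e-05). The fall in HL-60 missed the threshold under quantile normalization (-0.032).

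The 4 box C/D genes encode the core of the particles that methylate ribosomal RNA. In HL-60 NOP58 fell with both drugs, NOP56 with DAC and RRP9 with NTX-301, while in MOLM-13 all 4 fell with both. Role medians were -0.059 and -0.11 in HL-60, against -0.26 and -0.29 in MOLM-13. FBL (Gene 2091), the methyltransferase fibrillarin, went against the rest in HL-60. It was 13.39, 13.39 and 13.41 with DMSO, 13.52, 13.49 and 13.49 with DAC and 13.44, 13.39 and 13.39 with NTX-301 there. Its MOLM-13 values were 13.20, 13.13 and 13.12 with DMSO, 13.06, 13.08 and 13.04 with DAC and 13.00, 12.96 and 12.99 with NTX-301. The HL-60 DAC samples were all above DMSO, and FBL rose by 0.10 ± 0.021 (SE; limma adjusted p = 0.00283), whereas the NTX-301 samples overlapped DMSO (0.0099, 0.759). In MOLM-13 FBL fell by 0.090 and 0.17 (limma adjusted p = 0.0211 and 0.000377). The DAC fall missed the threshold without DMSO replicate 1 or DAC replicate 3 (0.0727 to 0.0775), and neither fall was called under quantile normalization (-0.0052 and -0.067).

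NOP56 (Gene 10528), a scaffold of the same particle, was 14.41, 14.44 and 14.41 with DMSO, 14.35, 14.32 and 14.36 with DAC and 14.36, 14.39 and 14.38 with NTX-301 in HL-60. The MOLM-13 levels were 14.84, 14.86 and 14.83 with DMSO, 14.58, 14.55 and 14.52 with DAC and 14.52, 14.52 and 14.49 with NTX-301. No drug sample overlapped DMSO, yet the sizes differed: NOP56 differed by -0.076 and -0.043 in HL-60 (limma adjusted p = 0.00943 and 0.0893, the second not called) and fell by 0.30 and 0.33 in MOLM-13 (3.37e-06 and 9.45e-07). RRP9 (Gene 9136) is the protein particular to the U3 particle, which base-pairs with the precursor. RRP9 was 11.29, 11.35 and 11.37 with DMSO, 11.26, 11.29 and 11.34 with DAC and 11.15, 11.13 and 11.15 with NTX-301 in HL-60. It was 11.23, 11.33 and 11.30 with DMSO, 10.99, 11.04 and 10.91 with DAC and 10.84, 10.87 and 10.84 with NTX-301 in MOLM-13. The HL-60 DAC samples overlapped DMSO (-0.043, limma adjusted p = 0.322), the NTX-301 samples fell by 0.19 (0.000128), and the MOLM-13 groups fell by 0.31 and 0.44 (0.000112 and 6.18e-06). NOP58, the partner of NOP56, fell by 0.15 and 0.17 in HL-60 and by 0.22 and 0.25 in MOLM-13. NOP56 has listed pseudogene copies, so its reads may be shared.

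All 4 H/ACA genes, the particle that turns uridine into pseudouridine, fell in MOLM-13 with both drugs. In HL-60, DKC1, NHP2 and NOP10 fell with both, and GAR1 with neither. DKC1 (Gene 1736) encodes dyskerin, the pseudouridine synthase, which is also a part of telomerase. DKC1 was 13.92, 13.91 and 13.88 with DMSO, 13.83, 13.80 and 13.85 with DAC and 13.75, 13.77 and 13.77 with NTX-301 in HL-60. It was 13.72, 13.71 and 13.71 with DMSO, 13.53, 13.50 and 13.49 with DAC and 13.49, 13.46 and 13.46 with NTX-301 in MOLM-13. Every drug sample lay below every DMSO sample, and DKC1 fell by 0.083 and 0.14 in HL-60 (limma adjusted p = 0.00838 and 7.59e-05) and by 0.21 and 0.24 in MOLM-13 (2.42e-05 and 4.87e-06). GAR1 (Gene 54433), a small subunit of the particle, was 9.80, 9.83 and 9.71 with DMSO, 9.82, 9.84 and 9.83 with DAC and 9.69, 9.69 and 9.70 with NTX-301 in HL-60. MOLM-13 samples gave 9.44, 9.51 and 9.45 with DMSO, 9.17, 9.31 and 9.16 with DAC and 9.30, 9.20 and 9.27 with NTX-301. The HL-60 DAC samples overlapped DMSO (0.051, limma adjusted p = 0.321), and the NTX-301 samples lay just below it without being called (-0.086, 0.0652; without DMSO replicate 3, -0.12 and 0.0115). In MOLM-13 GAR1 fell by 0.25 and 0.21 (limma adjusted p = 0.00242 and 0.00554). NHP2 and NOP10 fell by 0.15 and 0.13 with DAC and by 0.13 and 0.091 with NTX-301 in HL-60, and by 0.27 to 0.37 in MOLM-13. The HL-60 NTX-301 call was lost for NHP2 without NTX-301 replicate 2 (adjusted p = 0.0559) and for NOP10 without DMSO replicate 2, DAC replicate 1 or NTX-301 replicate 1 or 2 (0.0513 to 0.174), and both under quantile normalization (-0.095 and -0.075).

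Among the small subunit genes, with DAC, 3 of 12 fell in HL-60 (NOP14, WDR43 and TSR1) and 9 in MOLM-13, and UTP4 rose in both; with NTX-301, 8 and 10 fell. The medians were -0.047 and -0.10 in HL-60, against -0.14 and -0.22 in MOLM-13. UTP4 (Gene 84916), a WD-repeat protein of the earliest processome module, was 11.84, 11.83 and 11.82 with DMSO, 11.99, 11.95 and 11.95 with DAC and 11.91, 11.86 and 11.79 with NTX-301 in HL-60. Its MOLM-13 values were 11.59, 11.56 and 11.59 with DMSO, 11.70, 11.67 and 11.63 with DAC and 11.65, 11.64 and 11.58 with NTX-301. The DAC samples stood above DMSO in both lines, by 0.13 (limma adjusted p = 0.00662) and 0.084 (0.0423), and the NTX-301 samples overlapped DMSO in both (0.024 and 0.041; 0.578 and 0.28). The rise in MOLM-13 missed the threshold without any 1 of the DMSO replicates, DAC replicate 1 or 2 or NTX-301 replicate 2 (adjusted p 0.0551 to 0.131), with centring, a replicate block and only the groups compared (0.0516 to 0.277), while the rise in HL-60 kept its call in every alternative run; under quantile normalization the NTX-301 difference of UTP4 in MOLM-13 was called higher (0.10). WDR43 (Gene 23160), of the same early module, moved the other way. It was 14.27, 14.25 and 14.22 with DMSO, 14.09, 14.04 and 14.11 with DAC and 13.99, 13.96 and 14.01 with NTX-301 in HL-60. The MOLM-13 levels were 14.07, 14.15 and 14.15 with DMSO, 13.94, 13.83 and 13.82 with DAC and 13.86, 13.85 and 13.87 with NTX-301. No drug sample overlapped DMSO, and WDR43 fell by 0.17 and 0.26 in HL-60 (limma adjusted p = 0.000102 and 6.39e-07) and by 0.26 and 0.26 in MOLM-13 (0.000106 and 5.91e-05).

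RRP12 (Gene 23223), an export factor of pre-ribosomes, separated the 2 drugs. It was 12.93, 12.96 and 13.05 with DMSO, 12.94, 12.93 and 12.89 with DAC and 12.65, 12.70 and 12.71 with NTX-301 in HL-60. MOLM-13 samples gave 12.66, 12.68 and 12.70 with DMSO, 12.55, 12.61 and 12.66 with DAC and 12.46, 12.38 and 12.44 with NTX-301. DAC samples overlapped DMSO in both lines (-0.061 and -0.070; limma adjusted p = 0.162 and 0.109), and NTX-301 samples lay below both other groups, with falls of 0.29 and 0.25 from DMSO (3.69e-06 and 6.26e-05). Without DAC replicate 3 the DAC difference of RRP12 in MOLM-13 was called lower (-0.097, adjusted p = 0.0432). NOP14 (Gene 8602), a nuclear factor of pre-40S particles, was 13.37, 13.38 and 13.41 with DMSO, 13.27, 13.27 and 13.29 with DAC and 13.27, 13.30 and 13.33 with NTX-301 in HL-60. Its MOLM-13 values were 13.49, 13.45 and 13.48 with DMSO, 13.33, 13.32 and 13.31 with DAC and 13.26, 13.27 and 13.27 with NTX-301. All drug samples of NOP14 lay below DMSO, with falls of 0.11 and 0.084 in HL-60, against 0.15 and 0.21 in MOLM-13 (limma adjusted p = 0.00221, 0.00619, 0.000221 and 1.39e-05). An antisense gene, NOP14-AS1, overlaps it. Of the others, TSR1, a GTPase-like factor of late pre-40S particles, fell in all 4 comparisons (0.13 to 0.26). UTP15, HEATR1, BYSL and LTV1 fell in all but DAC in HL-60, though under quantile normalization the DAC fall of HEATR1 in MOLM-13 was not called (-0.032). UTP20 and WDR75 fell with both drugs in MOLM-13 and were not called in HL-60, and the line difference was called for both genes and drugs (-0.22 and -0.27 for UTP20, -0.11 and -0.14 for WDR75). Under quantile normalization neither fall of WDR75 was called (-0.0056 and -0.0086), nor its line difference with DAC (-0.031, adjusted p = 0.392), and its HL-60 difference with NTX-301 was then called higher (0.070). The fall of BYSL with DAC in MOLM-13 missed the threshold without DMSO replicate 3 or DAC replicate 1 (adjusted p 0.0683 to 0.0777) and under quantile normalization (-0.080, 0.118). UTP20 in HL-60 was called lower with DAC without DAC replicate 3 (-0.075), and with NTX-301 without DAC replicate 2 or 3 (-0.053). NAT10, the cytidine acetyltransferase of 18S RNA, was called in none of the 4 comparisons, at -0.039 and -0.051 in HL-60, against -0.005 and -0.063 in MOLM-13. Without NTX-301 replicate 1, NAT10 fell with NTX-301 in MOLM-13 (-0.087, adjusted p = 0.0207), and with quantile normalization its DAC difference there was called higher (0.078).

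**Figure D3:**
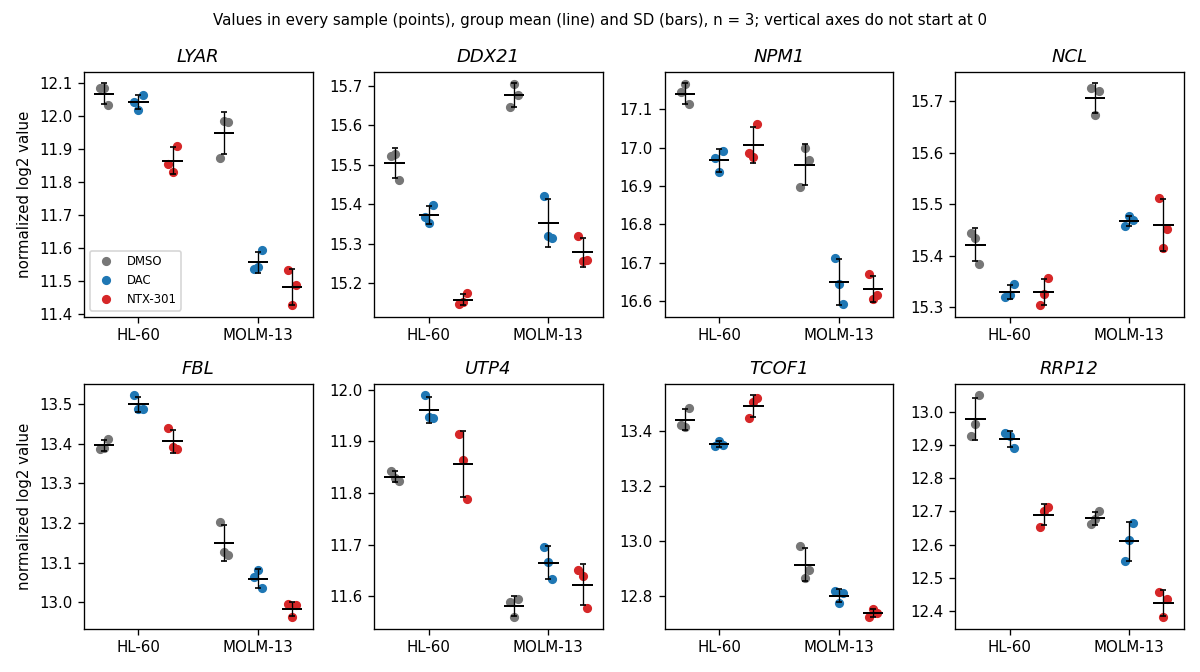
Deposited log2 values (vertical axes, which do not start at 0) of 8 genes in each sample, by line and treatment (horizontal axis). Points are samples, horizontal lines are group means and bars are SD. DDX21, LYAR and RRP12 show drug samples below DMSO in one or both lines, FBL and UTP4 show the higher DAC samples of HL-60, and TCOF1 shows HL-60 NTX-301 samples that overlap DMSO and lie above DAC.

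Of the 13 genes of 60S assembly, 8 fell with DAC and 11 with NTX-301 in HL-60, and 11 and all 13 in MOLM-13. Medians were -0.084 and -0.14 in HL-60, against -0.21 and -0.27 in MOLM-13. NOP16 (Gene 51491), a nucleolar 60S factor, had the deepest DAC difference of the 45 genes in HL-60. Its HL-60 values were 11.97, 12.01 and 11.95 with DMSO, 11.79, 11.77 and 11.84 with DAC and 11.70, 11.67 and 11.82 with NTX-301. The MOLM-13 levels were 12.32, 12.37 and 12.32 with DMSO, 12.08, 12.05 and 11.99 with DAC and 11.99, 11.94 and 11.97 with NTX-301. No drug sample reached the DMSO range, and NOP16 fell by 0.18 and 0.25 in HL-60 (limma adjusted p = 0.00244 and 7.65e-05) and by 0.30 and 0.37 in MOLM-13 (2.15e-05 and 2.85e-06). NIP7 (Gene 51388), which acts in pre-60S particles, was 12.62, 12.62 and 12.64 with DMSO, 12.51, 12.49 and 12.59 with DAC and 12.38, 12.41 and 12.47 with NTX-301 in HL-60. MOLM-13 samples gave 12.74, 12.87 and 12.81 with DMSO, 12.48, 12.40 and 12.38 with DAC and 12.41, 12.36 and 12.36 with NTX-301. All drug samples of NIP7 lay below DMSO, with falls of 0.097 and 0.21 in HL-60 and of 0.39 and 0.43 in MOLM-13 (limma adjusted p = 0.0251, 5.39e-05, 1.4e-05 and 3.78e-06). The DAC fall in HL-60 missed the threshold without DMSO replicate 2 or 3 or DAC replicate 1 or 2 (0.0614 to 0.105).

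BOP1 (Gene 23246) works in a complex with PES1 and WDR12 that is needed to process the 60S RNAs. BOP1 was 11.79, 11.79 and 11.89 with DMSO, 11.80, 11.83 and 11.74 with DAC and 11.67, 11.68 and 11.64 with NTX-301 in HL-60. It was 13.93, 13.92 and 13.88 with DMSO, 13.71, 13.73 and 13.71 with DAC and 13.59, 13.56 and 13.54 with NTX-301 in MOLM-13. HL-60 DAC samples overlapped DMSO (-0.033, limma adjusted p = 0.504), and BOP1 fell by 0.16, 0.19 and 0.34 in the other comparisons (0.00125, 7.08e-05 and 9.88e-07). PES1 fell by 0.11 to 0.31 and WDR12 by 0.064 to 0.15 in all 4 comparisons with DMSO. The fall of WDR12 with DAC in HL-60 missed the threshold without DMSO replicate 1 or 2 or any of the DAC replicates (adjusted p 0.0681 to 0.0872), with centring and with only the groups compared (0.0625 to 0.0702). Quantile normalization took its DAC difference in MOLM-13 to -0.028 (adjusted p = 0.282). RRP1 (Gene 8568), a nucleolar 60S factor, was 12.26, 12.23 and 12.26 with DMSO, 12.11, 12.17 and 12.08 with DAC and 12.01, 11.98 and 12.07 with NTX-301 in HL-60. Its MOLM-13 values were 12.05, 12.07 and 12.03 with DMSO, 11.82, 11.81 and 11.79 with DAC and 11.69, 11.63 and 11.59 with NTX-301. RRP1 showed 3 separate groups in MOLM-13, with NTX-301 lowest; it fell by 0.13 and 0.23 in HL-60 and by 0.25 and 0.42 in MOLM-13 (limma adjusted p = 0.00459, 2.56e-05, 6.25e-05 and 1.23e-06). Its paralogue RRP1B fell in all 4 as well, by 0.10 to 0.25.

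GNL3 (Gene 26354) encodes nucleostemin, a nucleolar GTPase abundant in dividing cells. GNL3 was 14.11, 14.14 and 14.13 with DMSO, 14.10, 14.03 and 14.06 with DAC and 14.02, 14.00 and 14.06 with NTX-301 in HL-60. It was 14.13, 14.18 and 14.14 with DMSO, 13.97, 13.89 and 13.92 with DAC and 13.90, 13.90 and 13.87 with NTX-301 in MOLM-13. The drug samples lay below DMSO, narrowly with DAC in HL-60: GNL3 fell by 0.064 and 0.10 there and by 0.22 and 0.26 in MOLM-13 (limma adjusted p = 0.0482, 0.00194, 6.36e-05 and 1.39e-05). The DAC fall in HL-60 missed the threshold in 7 of 9 fits that leave out a replicate (all but DAC replicate 1 and NTX-301 replicate 3; adjusted p 0.0518 to 0.177), and its NTX-301 fall there missed it under quantile normalization (-0.056). EBNA1BP2 (Gene 10969), another 60S factor, was 13.01, 13.12 and 13.06 with DMSO, 13.01, 12.97 and 13.03 with DAC and 12.92, 12.99 and 13.02 with NTX-301 in HL-60. The MOLM-13 levels were 12.96, 13.04 and 13.06 with DMSO, 12.72, 12.74 and 12.68 with DAC and 12.62, 12.58 and 12.62 with NTX-301. In HL-60 both drug groups overlapped DMSO, with -0.060 for DAC (limma adjusted p = 0.174) and a narrow fall of 0.085 for NTX-301 (0.0405). That fall missed the threshold without DMSO replicate 2 or 3, DAC replicate 1 or NTX-301 replicate 1 or 2 (0.0547 to 0.188), and under quantile normalization it was -0.049 (0.245). In MOLM-13 EBNA1BP2 fell by 0.31 and 0.42 (limma adjusted p = 1.52e-05 and 1.29e-06). DDX18, a DEAD-box helicase, fell in all 4 comparisons, by 0.084 to 0.27; without DMSO replicate 2 its DAC fall in HL-60 had an adjusted p of 0.0538. GNL2, a GTPase of pre-60S particles, fell in all but DAC in HL-60, and its NTX-301 fall there missed the threshold without DMSO replicate 1 or 2 or NTX-301 replicate 1 or 2 (0.0521 to 0.0728) and under quantile normalization (-0.046, 0.136). NOP2, which methylates 28S RNA, and PPAN fell in 1 of the 4 comparisons, NTX-301 in MOLM-13. PPAN shares reads with the readthrough gene PPAN-P2RY11; its call was lost without DMSO replicate 1 or 3, DAC replicate 3 or NTX-301 replicate 1 or 2 (0.0543 to 0.186) and under quantile normalization (-0.13), and without NTX-301 replicate 3 it was called lower with NTX-301 in HL-60 as well (-0.18, 0.0346).

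The multifunctional nucleolar proteins fell in every comparison but 2, LYAR and MYBBP1A with DAC in HL-60. Medians were -0.092 and -0.13 in HL-60, against -0.31 and -0.32 in MOLM-13, the lowest of the roles in MOLM-13. NPM1 (Gene 4869) encodes nucleophosmin, an abundant nucleolar chaperone and a gene often mutated in acute myeloid leukaemia. NPM1 was 17.14, 17.16 and 17.11 with DMSO, 16.97, 16.94 and 16.99 with DAC and 16.99, 16.97 and 17.06 with NTX-301 in HL-60. It was 16.90, 17.00 and 16.97 with DMSO, 16.71, 16.64 and 16.59 with DAC and 16.67, 16.61 and 16.62 with NTX-301 in MOLM-13. No drug sample reached the DMSO range, and the 2 drugs overlapped each other. NPM1 fell by 0.17 ± 0.024 (SE) and 0.13 ± 0.024 in HL-60 (limma adjusted p = 0.000136 and 0.000485) and by 0.31 ± 0.036 and 0.32 ± 0.036 in MOLM-13 (7.02e-05 and 2.85e-05). NCL (Gene 4691), nucleolin, binds precursor RNA and ribosomal DNA. NCL was 15.44, 15.44 and 15.38 with DMSO, 15.32, 15.32 and 15.34 with DAC and 15.31, 15.33 and 15.36 with NTX-301 in HL-60. It was 15.72, 15.67 and 15.72 with DMSO, 15.46, 15.48 and 15.47 with DAC and 15.51, 15.41 and 15.45 with NTX-301 in MOLM-13. NCL also lay below DMSO in every drug sample, with falls of 0.092 and 0.092 in HL-60, against 0.24 and 0.25 in MOLM-13 (limma adjusted p = 0.00484, 0.00254, 5.89e-05 and 2.87e-05). Under quantile normalization its NTX-301 difference in HL-60 was -0.019 and not called.

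DDX21 (Gene 9188), an RNA helicase of the nucleolus, had the deepest NTX-301 difference of the 45 genes in HL-60. It was 15.52, 15.53 and 15.46 with DMSO, 15.37, 15.35 and 15.40 with DAC and 15.15, 15.15 and 15.17 with NTX-301 there. MOLM-13 samples gave 15.65, 15.71 and 15.68 with DMSO, 15.42, 15.32 and 15.31 with DAC and 15.32, 15.26 and 15.26 with NTX-301. The 3 HL-60 groups were separate, with NTX-301 lowest: DDX21 fell by 0.13 ± 0.021 (SE) with DAC and by 0.35 ± 0.021 with NTX-301 (limma adjusted p = 0.000521 and 2.76e-08). In MOLM-13 it fell by 0.33 and 0.40 (limma adjusted p = 2.1e-05 and 3.22e-06), and the 2 drug groups overlapped. LYAR (Gene 55646), a zinc-finger protein of the nucleolus that is high in undifferentiated cells, had the deepest difference of the 45 in MOLM-13 with either drug. Its HL-60 values were 12.09, 12.08 and 12.03 with DMSO, 12.04, 12.02 and 12.06 with DAC and 11.85, 11.83 and 11.91 with NTX-301. Its MOLM-13 values were 11.87, 11.99 and 11.98 with DMSO, 11.54, 11.54 and 11.59 with DAC and 11.53, 11.43 and 11.49 with NTX-301. HL-60 DAC samples of LYAR overlapped DMSO (-0.026, limma adjusted p = 0.536), while it fell by 0.20 with NTX-301 (3.82e-05) and by 0.39 and 0.46 in MOLM-13 (1.81e-05 and 3.3e-06). MYBBP1A, a nucleolar repressor protein, fell by 0.11, 0.090 and 0.21 in the comparisons where it was called. Its DAC fall in MOLM-13 missed the threshold without DMSO replicate 1 or 3 (0.0501 to 0.06), and under quantile normalization it was -0.0069 (adjusted p = 0.891) and the NTX-301 fall in HL-60 was not called either (-0.063, 0.0814).

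Set against each other in HL-60, NTX-301 left 18 of the 45 genes lower than DAC and 2 higher (all genes: 15.0% lower, 15.4% higher; genes at or above the lowest mean of the 45: 24.9% and 19.6%), with a median of -0.051. The 18 were spread over 5 roles, 7 of them small subunit genes, and the 2 higher genes were both of RNA polymerase I transcription. RRP12 was lower by 0.23 ± 0.03 (SE), DDX21 by 0.21 ± 0.021 and LYAR by 0.18 ± 0.027 (limma adjusted p = 5.35e-05, 4.1e-06 and 0.000196), each with no overlap. TCOF1 was higher by 0.14 ± 0.025 and POLR1E by 0.097 ± 0.025 (limma adjusted p = 0.00078 and 0.00972), also with no overlap; with centring POLR1E missed the threshold (0.068). FBL and UTP4, which DAC raised, stood below their DAC level with NTX-301, by 0.093 and 0.10 (limma adjusted p = 0.00395 and 0.0163); UTP4 missed the threshold without DAC replicate 1 or NTX-301 replicate 3 (0.0717 to 0.0806). DKC1 (-0.058) was lost in 6 of 9 fits that leave out a replicate (all but DMSO replicates 1 and 3 and DAC replicate 2; 0.0536 to 0.155). RRP1 was lost without DAC replicate 2 or NTX-301 replicate 1 or 2 (0.0678 to 0.0978), and MYBBP1A without DAC replicate 1 or 2 or NTX-301 replicate 1 or 2 (0.0701 to 0.12). Under quantile normalization DKC1 (-0.018), RRP1 (-0.085) and MYBBP1A (-0.045) missed the threshold too. The other 25 genes were not called, with 95% intervals between -0.15 (NOP16) and 0.12 (PPAN), of which 20 lay within 0.1 of 0 on both sides; NOP16 was called lower without NTX-301 replicate 3 (-0.12, adjusted p = 0.0123), and GNL2 too (-0.083, 0.031).

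In MOLM-13, NTX-301 left 7 of the 45 genes lower than DAC and none higher (all genes: 4.41% lower, 3.01% higher; genes at or above the lowest mean of the 45: 7.45% and 4.25%; 18 lower and none higher at an unadjusted limma p under 0.05), with a median of -0.058. The 7 were RRP12, RRP1, BOP1, NOP2, PES1, EBNA1BP2 and MYBBP1A, 5 of them 60S genes. RRP12 was lower by 0.18 ± 0.032 (SE), RRP1 by 0.17 ± 0.029 and BOP1 by 0.15 ± 0.023 (limma adjusted p = 0.00688, 0.00617 and 0.00414), and these 3 kept their calls in every alternative. The count was 4 without DAC replicate 1, 3 without NTX-301 replicate 2 and 4 without NTX-301 replicate 3. NOP2 missed the threshold without DAC replicate 1 or 3 or NTX-301 replicate 2 or 3 (0.062 to 0.102). PES1 missed it without DMSO replicate 3, DAC replicate 1 or 2 or any NTX-301 replicate (0.0537 to 0.143). EBNA1BP2 missed it in all such fits but that without DMSO replicate 1 (0.0537 to 0.165), and MYBBP1A without NTX-301 replicate 2 (0.0717). PES1 was also lost with centring, no variance trend, only the groups compared and a replicate block (0.0502 to 0.082). EBNA1BP2 was lost with centring, quantile normalization, no variance trend and a replicate block (0.0573 to 0.0918). Quantile normalization also took MYBBP1A past the threshold (0.0559). The other 38 genes were not called, with 95% intervals between -0.24 (PPAN) and 0.15 (GAR1), of which 17 lay within 0.1 of 0 on both sides; RRP9 was called lower without DAC replicate 3 (-0.17, adjusted p = 0.0362). DAC and NTX-301 were compared at the nominal concentration of the line, as far as the labels give it.

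The falls were larger in MOLM-13 than in HL-60. A limma fit of all 18 samples over 15474 genes tested the difference itself: the change with DAC was lower in MOLM-13 for 24 of the 45 genes and higher for none (all genes: 17.9% lower, 12.1% higher; at or above the lowest mean of the 45, 29.1% and 11.9%), with a median of -0.11, and the change with NTX-301 for 28 and none (all genes: 22.4% lower, 17.6% higher; at or above that mean, 34.4% and 17.6%), with a median of -0.12. At an unadjusted p under 0.05 the counts were 30 and 31 lower, again with none higher. Quantile normalization left 14 and 19 lower and 2 and 1 higher, with medians of -0.044 and -0.068. The largest differences for DAC were LYAR at -0.36 ± 0.047 (SE) and GAR1 at -0.30 ± 0.06 (limma adjusted p = 1.07e-05 and 0.000834). For NTX-301 they were EBNA1BP2 at -0.33 ± 0.044 and NOP56 at -0.29 ± 0.027 (limma adjusted p = 7.69e-06 and 1.15e-07). NPM1 differed by -0.13 with DAC and -0.19 with NTX-301 (limma adjusted p = 0.0392 and 0.00299); the first missed the threshold in 8 of 18 fits that leave out a replicate (DMSO or DAC replicates 1 and 3 of HL-60 and 2 and 3 of MOLM-13; 0.0587 to 0.105), without the variance trend, with a replicate block and with only the groups compared (0.0533 to 0.0658). For WDR43, TSR1 and RRP12 the difference between the lines with DAC was not called, at -0.089, -0.053 and -0.0093. Without MOLM-13 DMSO or DAC replicate 1, WDR43 was called lower (-0.13 to -0.11), as it was with centring (-0.13, limma adjusted p = 0.0248).

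**Figure D4:**
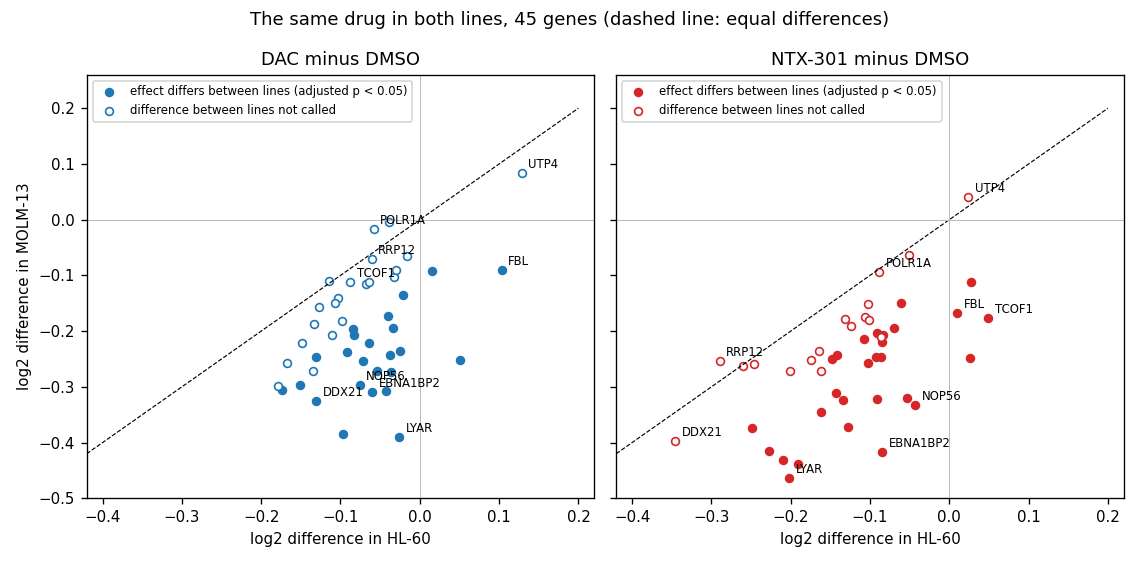
Log2 difference from DMSO in HL-60 (horizontal axis) against MOLM-13 (vertical axis), 1 point per gene for the 45 genes, 1 panel per drug; the dashed line marks equal differences. For DAC 42 and for NTX-301 43 of the 45 points lie below the dashed line.

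The 2 lines share no samples. With DAC, 22 genes fell in both lines, 95.7% of the 23 in HL-60 and 56.4% of the 39 in MOLM-13. With NTX-301, all 34 genes that fell in HL-60 also fell in MOLM-13, where they made up 79.1% of the 43. In MOLM-13, 86.7% (DAC) and 95.6% (NTX-301) of the 45 genes fell, so overlaps of about this size follow from the counts alone. Across the 45 genes the differences in the 2 lines had a Pearson r of 0.46 and a Spearman rho of 0.39 for DAC, and 0.58 and 0.59 for NTX-301, as a description over genes that are not independent. The gap between the 2 drugs was itself compared between the lines: 3 genes (GAR1, LTV1 and DDX21) stood higher in MOLM-13 and 2 (TCOF1 and NOP14) lower, against 8.33% higher and 9.41% lower among all genes. TCOF1 at -0.20 ± 0.039 (SE) and DDX21 at 0.14 ± 0.04 (limma adjusted p = 0.0015 and 0.0187) kept their calls in every alternative. GAR1 (0.18), NOP14 (-0.083) and LTV1 (0.13) missed the threshold in 12, 11 and 9 of 18 fits that leave out a replicate, with adjusted p up to 0.105, 0.125 and 0.109. With centring the median gap turned from -0.0097 to 0.026.

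By their medians, genes with and without CACGTG did not separate in a single direction. By counts, a smaller share of the genes with CACGTG fell in every comparison with DMSO. In HL-60 with DAC, 6 of the 19 genes with the sequence fell and 2 rose (FBL and UTP4), with a median of -0.043, and 13 of the 18 without it fell, with a median of -0.095. With NTX-301 in HL-60 the counts were 13 of 19 and 15 of 18, and the medians -0.091 and -0.13. In MOLM-13, 16 of 19 and 16 of 18 fell with DAC, and 1 with the sequence rose. With NTX-301, 17 of 19 and 18 of 18 fell there. The MOLM-13 medians were -0.24 and -0.20 with DAC and -0.25 and -0.24 with NTX-301. These are descriptions, and the difference between the sets was not tested.

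In the wider pathway, too, more genes fell than rose, in a list that was also chosen with earlier results of these data known. Of 131 other ribosome biogenesis genes tested, 57 fell and 2 rose with DAC in HL-60, and 68 fell and 6 rose with NTX-301. In MOLM-13 102 fell and 2 rose with DAC, and 111 fell and 3 rose with NTX-301. The shares that fell were 43.5%, 51.9%, 77.9% and 84.7%, against 12.6%, 19.2%, 21.2% and 24.8% of all genes. Among genes at or above the cut at the mean of GAR1, 21.5%, 33.1%, 37.3% and 43.2% fell. The shares that rose were 1.53%, 4.58%, 1.53% and 2.29%, against 11.6%, 18.3%, 15.4% and 20.3% of all genes. These sets were not matched to the 131 genes in level. The medians of the 131 genes were -0.064, -0.071, -0.16 and -0.21, and stayed below 0 under both other scalings. The 10 RNA polymerase I genes among them differed with NTX-301 in HL-60, where 2 fell and 4 rose, with a median of 0.056. With DAC there, 4 of the 10 fell and 2 rose (median -0.039). In MOLM-13, 8 fell and none rose with DAC, and 5 fell and 1 rose with NTX-301 (medians -0.14 and -0.12). The deepest falls with DAC in HL-60 were SURF6, a nucleolar 60S factor, at -0.28 (limma adjusted p = 3.9e-05) and NGDN, of the small subunit processome, at -0.20 (0.000843). With NTX-301 in HL-60 they were IMP3, which binds U3, at -0.32 (4.4e-06) and POLR1G, an RNA polymerase I subunit, at -0.30 (3.99e-05). In MOLM-13 they were BRIX1, a 60S factor, at -0.37 (9.32e-06) and SHQ1, an H/ACA assembly chaperone, at -0.35 (5.24e-06) with DAC, and POLR1G at -0.46 (2.35e-06) and BRIX1 at -0.42 (2.36e-06) with NTX-301. A few rose: TAF1A, of the promoter selectivity factor, by 0.11 and 0.16 with DAC and NTX-301 in HL-60 (limma adjusted p = 0.035 and 0.00249), the RNA polymerase I subunits POLR1F by 0.086 with DAC (0.024) and POLR1H by 0.13 with NTX-301 (0.00489) in HL-60. Both subunits fell in MOLM-13, POLR1F by 0.29 and 0.29 and POLR1H by 0.15 and 0.20 (DAC and NTX-301; limma adjusted p = 8.52e-05, 4.96e-05, 0.013 and 0.00159). In MOLM-13 the 60S factor NOP53 rose by 0.23 with DAC and 0.21 with NTX-301 (limma adjusted p = 0.00178 and 0.00232). In HL-60 NOP53 rose by 0.083 with NTX-301 (limma adjusted p = 0.049) and was not called with DAC (-0.058). TAF1C rose with NTX-301 by 0.22 in MOLM-13 and 0.11 in HL-60 (limma adjusted p = 0.00865 and 0.00757). With DAC it was called in neither line (0.15 in MOLM-13, 0.0072 in HL-60). ZCCHC7, of a nuclear RNA surveillance complex, rose in MOLM-13 by 0.078 with DAC and 0.22 with NTX-301 (limma adjusted p = 0.0465 and 7.84e-05).

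The 79 cytosolic ribosomal protein genes, the products that these factors assemble, did not follow throughout. In HL-60 63 fell and none rose with DAC (79.7%, against 12.6% of all genes, median -0.11). At an unadjusted limma p under 0.05, 68 were lower and none higher with DAC. By contrast, 14 fell and 2 rose with NTX-301 in HL-60 (17.7% and 2.53%, against 19.2% and 18.3% of all genes, median -0.023). There 49 were higher and 1 lower with NTX-301 than with DAC (62.0% and 1.27%, against 15.4% and 15.0% of all genes, median 0.089). In MOLM-13 20 fell and 4 rose with DAC (25.3% and 5.06%, against 21.2% and 15.4% of all genes; median -0.060) and 24 fell and 3 rose with NTX-301 (30.4% and 3.8%, against 24.8% and 20.3%; median -0.049). Except for DAC in HL-60, the shares that fell were near those of all genes. They were below those of genes at or above the lowest mean of the 45. Of these, 33.1% fell with NTX-301 in HL-60, and 37.3% and 43.2% fell with DAC and NTX-301 in MOLM-13. On the deposited values, the shares that rose were below those of all genes in every comparison with DMSO. Apart from DAC in HL-60 and the contrast between the drugs there, the direction of this family rested on the scaling: with quantile normalization the medians were 0.006 for NTX-301 in HL-60, against 0.020 and 0.041 in MOLM-13. The medians of the 45 genes stayed below 0 against DMSO under each scaling.

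The values of the listed 45S genes rose in 3 of the 4 comparisons with DMSO. RNA45SN1, RNA45SN2 and RNA45SN3, copies of the 45S precursor gene, were listed in both lines. Their copies share reads and the kit removes ribosomal RNA, so their levels are uncertain. The mature RNAs are cut from this precursor, so these values do not separate the precursor from mature RNA left in the library. RNA45SN1 was 16.74, 16.85 and 16.61 with DMSO, 17.02, 17.03 and 16.57 with DAC and 17.48, 17.11 and 17.21 with NTX-301 in HL-60. In MOLM-13 it was 15.02, 14.78 and 14.95 with DMSO, 15.30, 15.78 and 15.65 with DAC and 15.61, 15.41 and 15.41 with NTX-301. The NTX-301 samples of both lines and the DAC samples of MOLM-13 lay above DMSO, and the HL-60 DAC samples overlapped it. The 3 copies rose by 0.53, 0.56 and 0.53 with NTX-301 in HL-60 (limma adjusted p = 0.00137, 0.000633 and 0.00118), by 0.66, 0.58 and 0.53 with DAC in MOLM-13 (0.000393, 0.000678 and 0.00265) and by 0.56, 0.51 and 0.36 with NTX-301 in MOLM-13 (0.000874, 0.00111 and 0.0173). With DAC in HL-60 they differed by 0.14, 0.12 and 0.16 and were not called (0.38, 0.444 and 0.302); without DAC replicate 3 each was called, at 0.25 to 0.30. The rise of RNA45SN3 with NTX-301 in MOLM-13 missed the threshold without DMSO replicate 2 or NTX-301 replicate 1 and in 1 of 7 other fits. The mature RNAs were mixed. The 3 listed 18S copies were below 0 in all 4 comparisons and not called (RNA18SN1 at -0.30 and -0.27 in MOLM-13, limma adjusted p = 0.201 and 0.217). In HL-60 the values were very low, and the differences rested on DMSO replicate 1. RNA18SN1 was 2.63, 2.47 and 2.47 with DMSO there and 2.47 in every drug sample. For RNA18SN2 and RNA18SN3, too, DMSO replicate 1 alone stood apart in HL-60. Neither RNA28SN1 nor RNA28SN2 was called against DMSO, with differences of -0.046 to 0.0996. The 5.8S copies RNA5-8SN1, RNA5-8SN2 and RNA5-8SN3 had identical values, from 0.0001 to 0.0010 in MOLM-13. In HL-60 they lay between -0.0019 and -0.0010 and did not pass the filter. Values so near 0 give no measure of change. RNA28SN3 varied widely, at 10.51, 9.15 and 9.52 with DMSO and 11.25, 9.53 and 9.22 with DAC in MOLM-13, and its NTX-301 samples (11.62, 11.58 and 11.68) lay above all of these. It rose by 1.90 ± 0.44 (SE) there (limma adjusted p = 0.00418) and was not called in the other comparisons with DMSO.

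**Figure D5:**
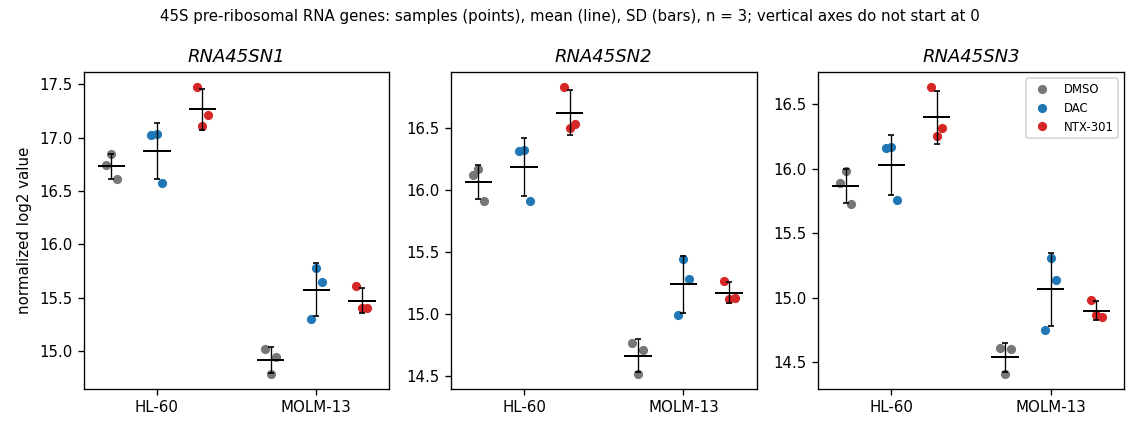
Deposited log2 values (vertical axis, which does not start at 0) of the 3 listed 45S precursor genes in each sample, by line and treatment (horizontal axis). Points are samples, horizontal lines are group means and bars are SD. NTX-301 samples lie above DMSO in both lines, and DAC replicate 3 of HL-60 lies with DMSO.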

How the data were processed

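Libraries of 18 samples were made with the TruSeq kit for stranded total RNA, per the labels' protocols. FastQC, Trimmomatic 0.38, HISAT2 and StringTie are named in the submitters' processing notes, with build hg19. The authors deposited 1 normalized log2 value per gene and sample. The unit was read from the values; the normalization method was not given in the sources used here. Weakly expressed genes lie close to their mean over a line, which compresses their differences, and the read depth is unknown, so precision rests on the spread between replicates. Genes carry NCBI Gene IDs, per the file headers, and promoter windows came from RefSeq on GRCh38.p14, used by gene and not by coordinates of hg19.

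A gene was kept in a line where 3 or more samples reached 1 on the linear scale. The test was limma (3.58.1, under R 4.3.3; lmFit, contrasts.fit, eBayes with a trend, two-sided), all 9 samples of a line in 1 fit with a mean per group (6 residual degrees of freedom), or all 18 samples for differences between lines (12). Benjamini-Hochberg adjustment covered every gene kept. The fit was tested on simulated data first. Alternatives were median centring, quantile normalization, a filter at a mean linear value of 50, no filter, no variance trend, only the groups compared, a replicate block and leaving out each replicate.

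All 45 genes are covered by role. Those given sample by sample are, per comparison within a line, up to 3 called genes with the highest and 3 with the lowest difference in the called direction, the 2 largest for each comparison between lines, and 13 well-known genes, whatever their values; of the other pathway genes, the 2 highest and 2 lowest called. The genes and lists were chosen with earlier results of these data known, and 1 listed pathway gene was not tested, and a coordinate genome was not used here.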

Additional observations from a re-analysis of the deposited data

Results flagged for a closer look

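The change with DAC differed between the lines for 24 of the 45 genes (all lower in MOLM-13, against 17.9% of all genes), by the limma test of that difference, with LYAR at -0.36 and GAR1 at -0.30 (MOLM-13 minus HL-60, log2). The change with NTX-301 differed for 28 of the 45 (all lower, against 22.4%), with EBNA1BP2 at -0.33 and NOP56 at -0.29. The gap between NTX-301 and DAC differed for 5 (6.67% of the genes higher and 4.44% lower, below the 8.33% and 9.41% of all genes), with TCOF1 at -0.20 and NOP14 at -0.083 lower in MOLM-13 and DDX21 at 0.14 and GAR1 at 0.18 higher. GAR1 and NOP14 lost that call in 12 and 11 of 18 fits that leave out a replicate. Line and stated concentration change together in all of these and cannot be told apart.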

How the results depend on the processing

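Counts of falls against DMSO stayed within 1.5 times under every alternative run; the cause of the changes below was not tested. Quantile normalization reversed POLR1A in MOLM-13 (0.065 with DAC, 0.0084 with NTX-301), NAT10 with DAC in MOLM-13 (0.078) and the line difference of POLR1A with NTX-301 (0.069). It gave 2 genes higher with NTX-301 in HL-60, 6 for NTX-301 over DAC in HL-60, 3 with DAC and 1 with NTX-301 in MOLM-13, 2 higher and 14 lower for the line difference with DAC, and 1 higher for that with NTX-301. Centring gave 1 gene higher for NTX-301 over DAC in HL-60, none (0) for MOLM-13 DAC, and 6 higher with 1 lower for the line difference of the drug gap. Fitting only the groups compared gave 0 higher for MOLM-13 DAC, and for the drug gap 1 higher with 1 lower. Leaving out 1 replicate gave 0 to 1 higher with NTX-301 in HL-60, 0 to 1 higher with DAC in MOLM-13, 3 to 7 lower for NTX-301 under DAC in MOLM-13, and 1 to 4 higher and 1 to 3 lower for the drug gap between lines. Replicate numbers did not pair the samples (same-number correlations -0.057 to 0.12 in HL-60 and -0.16 to 0.11 in MOLM-13; 4 and 2 of 9 correlated best with their own number). With a replicate block, HL-60 had 23 falls with DAC and 34 with NTX-301, MOLM-13 had 39 and 43, the single DAC rise in MOLM-13 was lost (0 higher), and the drug gap between lines had 1 gene higher and 1 lower. Read depth is unknown, and 3 replicates per group limit what small differences can show.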
